A study of Mus musculus with 6 samples.

Results

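The genes described here encode the protein quality control of the mitochondrion in mouse Th17 cells, the helper T cells that make interleukin-17. The 10 genes were chosen by function, with earlier results of these data known. They are the chaperones and cochaperones Hspd1, Hspe1, Hspa9 and Dnaja3, the proteases Lonp1, Clpp, Clpx and Htra2, and the prohibitins Phb and Phb2. Each was found by its symbol among the 23393 named genes of the deposited table, and all 10 entered the test, which took the 11947 genes whose mean normalised read count reached 10. Poly(A) RNA was sequenced from cells labelled as pathogenic Th17 cells, which were grown from naive CD4 T cells (C57BL/6) stimulated for 2 days through CD3 and CD28 with IL-23, IL-6 and IL-1b, in 3 libraries of each of 2 genotypes. The group Stat3C (Stat3CSTOPfl/fl CD4-Cre) makes an always active STAT3, a transcription factor, once Cre removes a stop sequence. The group Stim1KO Stat3C (Stim1fl/fl Stat3CSTOPfl/fl CD4-Cre) carries the same alleles and also loses the floxed part of Stim1, the calcium sensor of the endoplasmic reticulum that opens store-operated calcium channels. The active STAT3 allele and Cre are thus shared by both groups, and no library with normal STAT3 or without Cre was analysed here. Cre driven by the Cd4 promoter acts from the thymus onwards, so the change is not limited to Th17 cells. The labels used here give no ages.

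Most mitochondrial proteins are made in the cytosol, enter the organelle unfolded and have to be folded, and damaged ones have to be cut up. HSPA9 (mortalin), the HSP70 of the matrix, pulls in and holds new proteins. The J-domain protein DNAJA3 is a cochaperone of HSPA9 in the matrix. The chaperonin HSPD1 (HSP60) with its lid HSPE1 (HSP10) folds proteins in a closed chamber. LONP1 and the pair of CLPX, an unfoldase, and CLPP, a peptidase, degrade proteins in the matrix, HTRA2 cuts proteins in the space between the membranes, and PHB with PHB2 forms rings in the inner membrane that hold membrane proteases and cristae in order. Activated T cells enlarge their mitochondria as they grow, and these genes are counted among the targets of mitochondrial stress signalling.

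The Stat3C libraries held 51347367, 43532417 and 23092044 reads, and the Stim1KO Stat3C libraries 16009755, 20660749 and 22519269. Each Stim1KO Stat3C library thus held fewer reads than any Stat3C library. Stim1, the targeted gene, stood at 1999, 1969 and 1931 normalised counts in Stat3C and at 811, 794 and 687 in Stim1KO Stat3C (log2 fold change -1.37, SE 0.08, adjusted p = 0.000287), so it was lower in each library labelled as a knockout. Fold changes compare Stim1KO Stat3C with Stat3C on the log2(value + 1) scale, negative where the knockout was lower, and come from limma with p-values adjusted over all tested genes (threshold 0.05). Summed T cell markers (6 of 6 found) were 39617 to 44785 in Stat3C against 53189 to 57731 in Stim1KO Stat3C, with 5 of 6 risen, and of the Th17 markers Il17a fell (2593 to 3919 in Stat3C, 409 to 586 in Stim1KO Stat3C), as did Il17f (9805 to 12993, then 2874 to 3532). Summed markers of B cells (5 of 5 found) were 111 to 335 in Stat3C against 18.3 to 35.8 in Stim1KO Stat3C, those of CD8 T cells (2 of 2) 277 to 453 and 111 to 159, those of NK cells (4 of 4) 8.72 to 18.1 and 4.3 to 13.7, and those of myeloid cells (6 of 6) 133 to 305 and 334 to 402. Of the myeloid markers Cd68 rose (115 to 139, then 317 to 396), while Csf1r and Adgre1 were at 0 in Stim1KO Stat3C, as was the B cell marker Ms4a1. Of the red cell markers (3 of 3) Hba-a1 was at 0 throughout and the sum was 3.88 to 477 in Stat3C, with the high value in replicate 2, and 12.9 to 52.0 in Stim1KO Stat3C. The part of these cells in the results below was not tested. Stat3C replicate 2 stood apart from the others (mean correlation with its own group 0.9587, against 0.9721 to 0.9859), and Xist set replicate 3 of each group (8362 and 11549) apart from replicates 1 and 2 (at most 3.5), as did the Y-linked Ddx3y (at most 1.0, against 1007.9 to 1361.5). Each group thus held cells of both sexes and so of at least 2 mice. No label says that all replicates were separate mice, so part of the spread behind the p-values may be technical.

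Promoter sequence was taken from RefSeq (GRCm38.p6) for 8 of the 10 genes. Hspa9 and Htra2 were not analysed here in this respect. Hspd1 and Hspe1 lie head to head on chromosome 1 and share the stretch between their start sites, so it is shown first. Its capitals mark 4 alternating heat shock units, TTC and GAA with 2 bases between them, the pattern that heat shock factors bind, the first of them 89 bases before the start site of Hspe1 and the run 144 bases before the nearer of the start sites listed for Hspd1. The stretch also lies inside the first exon of Hspd1 when its farther start site is used. The other stretches run up to the base before the start site. Those of Phb, Dnaja3, Clpp and Phb2 are shown because these genes are among those that fell. Lonp1, which did not pass the test, is shown beside them.
Hspe1 and Hspd1, chr1:55088053-55088082, plus strand: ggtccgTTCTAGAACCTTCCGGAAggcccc
Phb, chr11:95666717-95666956, plus strand: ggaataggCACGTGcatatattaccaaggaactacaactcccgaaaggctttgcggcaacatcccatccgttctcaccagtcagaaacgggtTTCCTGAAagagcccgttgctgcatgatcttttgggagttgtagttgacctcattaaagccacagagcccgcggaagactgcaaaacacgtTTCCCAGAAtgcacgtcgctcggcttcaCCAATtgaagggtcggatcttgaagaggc
Dnaja3, chr16:4684010-4684069, plus strand: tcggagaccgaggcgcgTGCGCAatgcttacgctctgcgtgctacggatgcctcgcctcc
Clpp, chr17:56990204-56990263, plus strand: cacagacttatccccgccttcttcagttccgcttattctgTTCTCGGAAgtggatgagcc
Phb2, chr6:124712179-124712288, plus strand: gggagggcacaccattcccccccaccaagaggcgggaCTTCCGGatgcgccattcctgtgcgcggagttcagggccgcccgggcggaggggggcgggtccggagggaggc
Lonp1, chr17:56626904-56626963, minus strand: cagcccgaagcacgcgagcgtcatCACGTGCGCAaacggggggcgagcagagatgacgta

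In these stretches the capitals mark, for Phb, an E-box (CACGTG, bound by MYC and related factors), a heat shock pair (TTCNNGAA), a STAT-type site (TTCNNNGAA) and a CCAAT box; for Dnaja3 the core of the NRF1 site (TGCGCA); for Clpp a STAT-type site; for Phb2 1 of 3 ETS sites (CCGGAAG, here on the other strand); and for Lonp1 an E-box that overlaps an NRF1 core. Over the 32851 promoters of 300 bases in the table, searched on both strands, 7.15% hold CACGTG, 8.52% TTCNNGAA, 7.86% GAANNTTC, 8.30% TTCNNNGAA, 7.76% TGCGCA, 8.86% CCGGAAG and 37.4% CCAAT. The CHOP and ATF composite site TGATGCAA, in 0.895% of all promoters, matched none of the promoters of the 8 genes. A run of 4 heat shock units was found in 8 promoters (0.0244%), those of Hspd1 and Hspe1 included, and a run of 3 in 0.603%. GAANNTTC and TTCNNGAA overlap within such a run, TTCCGGAA overlaps the ETS site, and the stretch shared by Hspd1 and Hspe1 is counted for each. CACGTG also occurs upstream of the farther Hspd1 start site. The promoter of Clpx, which did not pass the test, is not shown. It holds an NRF1 core and a CCAAT box, at -83 and -136 bases from the start site. These are matches of letters and not measured binding.

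The chaperonin genes were lower by about the same proportion in Stim1KO Stat3C, although only the lid passed the main test. Hspe1 (chromosome 1, 55088132 to 55091307, plus strand, GRCm38) stood at 7266, 6430 and 7761 in Stat3C and at 5337, 5076 and 5771 in Stim1KO Stat3C. The groups did not overlap, and it fell from 7153 ± 673 to 5395 ± 351 (SD, n = 3; log2 fold change -0.40, SE 0.08, adjusted p = 0.0157). In bulk samples such as these, fewer cells of a type and less RNA per cell cannot be told apart. Hspd1 (chromosome 1, 55077835 to 55088243, minus strand) stood at 36911, 29093 and 37124 in Stat3C and at 24300, 26558 and 28906 in Stim1KO Stat3C. The groups again did not overlap, but the lowest Stat3C value, that of replicate 2, lay close to the highest of the other group. Its change of -0.37 (SE 0.11, 95% interval -0.61 to -0.12) missed the threshold at adjusted p = 0.0561. Without Stat3C replicate 2 it was -0.48 (adjusted p = 0.00141), and without any other single library it missed the threshold (0.0689 to 0.184). With log2 Xist as a covariate, an alternative added after the data were seen, Hspd1 passed (-0.36, adjusted p = 0.0422). In that fit 7 of the 10 genes fell in place of 6. Hspd1 also passed with DESeq2 (adjusted p = 0.00164), which called 8 of the 10 lower, against 8.40% of all tested genes. The Hspe1 call was lost without Stat3C replicate 1 (adjusted p = 0.0639) or 3 (0.0611) and without Stim1KO Stat3C replicate 1 (0.0669) or 2 (0.0665).

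In the HSP70 system of the matrix, the cochaperone fell and the chaperone itself did not pass the test. Dnaja3 (chromosome 16, 4639989 to 4707695, plus strand) stood at 1763, 1674 and 1786 in Stat3C and at 1330, 1378 and 1312 in Stim1KO Stat3C. It fell from 1741 ± 59.1 to 1340 ± 34.2 (log2 -0.38, SE 0.06, adjusted p = 0.00602) and varied little within a group, with coefficients of variation of 3.39% and 2.55%. The call held with each library left out in turn (adjusted p 0.00213 to 0.0377). Hspa9 (chromosome 18, 34937414 to 34954357, minus strand) stood at 25846, 22202 and 26561 in Stat3C and at 19917, 21193 and 22940 in Stim1KO Stat3C. Here the groups overlapped, since Stat3C replicate 2 lay below Stim1KO Stat3C replicate 3 (log2 -0.22, SE 0.08, 95% interval -0.41 to -0.03, adjusted p = 0.116). Without Stat3C replicate 2 Hspa9 passed (log2 -0.30, adjusted p = 0.00985).

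The proteases divided into a pair that fell and a pair whose levels lay close together in both groups. Htra2 (chromosome 6, 83051266 to 83055273, minus strand) stood at 1460, 1753 and 1652 in Stat3C and at 1100, 1094 and 1149 in Stim1KO Stat3C. It fell from 1622 ± 149 to 1114 ± 30.4, which was the largest decrease among the 10 genes (log2 -0.54, SE 0.08, adjusted p = 0.00497), and the call held with each library left out (adjusted p 0.00216 to 0.028). Clpp, the peptidase subunit (chromosome 17, 56990305 to 56996188, plus strand), stood at 2049, 1892 and 2116 in Stat3C and at 1634, 1457 and 1777 in Stim1KO Stat3C. It fell from 2019 ± 115 to 1623 ± 160 (log2 -0.32, SE 0.08, adjusted p = 0.0427). The Clpp call was lost without Stat3C replicate 1 (adjusted p = 0.141) or 3 (0.151) and without Stim1KO Stat3C replicate 1 (0.116) or 2 (0.119).

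Clpx, the unfoldase that feeds CLPP (chromosome 9, 65294260 to 65330658, plus strand), stood at 1062, 1006 and 1023 in Stat3C and at 1075, 1019 and 995 in Stim1KO Stat3C. The ranges lay on top of each other, with means of 1030 ± 29.0 and 1030 ± 41.0 (log2 0.00, SE 0.06, 95% interval -0.15 to 0.15, adjusted p = 0.993). Lonp1, the other large matrix protease (chromosome 17, 56614297 to 56626887, minus strand), stood at 5481, 5805 and 5798 in Stat3C and at 5524, 5783 and 5293 in Stim1KO Stat3C. It too overlapped between the groups (log2 -0.04, SE 0.05, 95% interval -0.16 to 0.08, adjusted p = 0.629). A decrease of the size seen for Htra2, Clpp, Hspe1, Dnaja3, Phb or Phb2 lies outside both intervals.

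Both prohibitin genes fell, by the same amount. Phb (chromosome 11, 95666957 to 95680773, plus strand) stood at 7768, 7297 and 8250 in Stat3C and at 5828, 6339 and 6608 in Stim1KO Stat3C. It fell from 7772 ± 476 to 6258 ± 396 (log2 -0.31, SE 0.07, adjusted p = 0.0209), with no overlap between the groups. Phb2 (chromosome 6, 124712336 to 124716950, plus strand) stood at 11711, 10262 and 12346 in Stat3C and at 8597, 9304 and 9699 in Stim1KO Stat3C. It fell from 11440 ± 1068 to 9200 ± 558 (log2 -0.31, SE 0.08, adjusted p = 0.0364), again with no overlap. The Phb call was lost without Stat3C replicate 1 (adjusted p = 0.0775) or 3 (0.0856) and without Stim1KO Stat3C replicate 1 (0.0731) or 2 (0.0679). The Phb2 call was lost without these libraries (0.128, 0.132, 0.126 and 0.102) and also without Stim1KO Stat3C replicate 3 (0.0566).

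**Figure D1:**
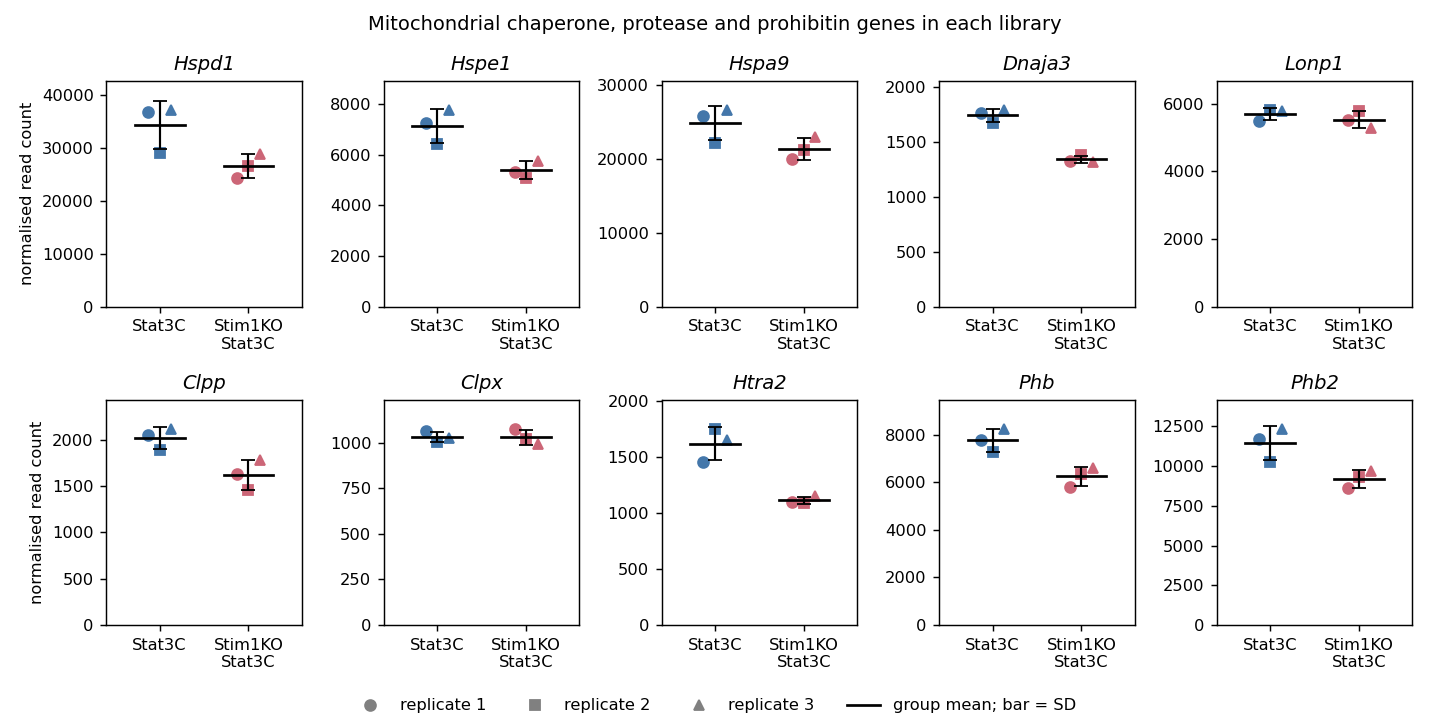
Normalised read count (vertical axis, from 0) of each of the 10 genes in the 3 Stat3C libraries (blue) and the 3 Stim1KO Stat3C libraries (red), with markers for the replicate, lines for the group means and bars for the SD. The groups are apart for Hspd1, Hspe1, Dnaja3, Clpp, Htra2, Phb and Phb2 and overlap for Hspa9, Lonp1 and Clpx.

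Of the 10 genes 6 fell (Hspe1, Dnaja3, Clpp, Htra2, Phb and Phb2), none rose and 4 did not pass. Over all tested genes 4.96% fell and 8.62% rose, which makes 13.6% called in either direction. The groups did not overlap, with Stim1KO Stat3C lower, for 7 of the 10, against 16.4% of all tested genes, and no member lay without overlap in the other direction, against 19.2%. The median log2 fold change of the 10 was -0.32, and that of all tested genes 0.00. At an unadjusted p below 0.05, limma put 8 of the 10 lower and 0 higher, against 14.0% of all tested genes lower. On recovered reads edgeR also called 6 lower and 0 higher, where it called 4.70% of all genes lower, and DESeq2 called 8 lower and 0 higher, where it called 8.40% of all genes lower. With voom 4 of the 10 passed, all lower, where it called 3.75% of all genes lower.

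The number of calls rested on single libraries, while the log2 fold changes of the 6 genes lay between -0.61 and -0.24 whichever library was left out. With 1 library left out, 2 of the 10 genes passed without replicate 1 or 3 of Stat3C or replicate 1 or 2 of Stim1KO Stat3C, namely Dnaja3 and Htra2. It was 5 without Stim1KO Stat3C replicate 3 and 8 without Stat3C replicate 2. The number of all tested genes that fell moved in the same order, from 593 with no library left out. It became 140 and 154 without Stat3C replicates 1 and 3, and 198 and 214 without Stim1KO Stat3C replicates 1 and 2. Without Stim1KO Stat3C replicate 3 it was 358, and without Stat3C replicate 2 it was 1192. Within replicates 1 and 2 of each group alone the log2 fold changes of the 6 genes were -0.39 (Hspe1), -0.34 (Dnaja3), -0.35 (Clpp), -0.54 (Htra2), -0.31 (Phb) and -0.29 (Phb2), and none passed with limma (7 of the 10 lower at an unadjusted p below 0.05, against 8.65% of all tested genes). Between the libraries of replicate 3, 1 of each group and so without a test, they were -0.43, -0.44, -0.25, -0.52, -0.32 and -0.35 in the same order.

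**Figure D2:**
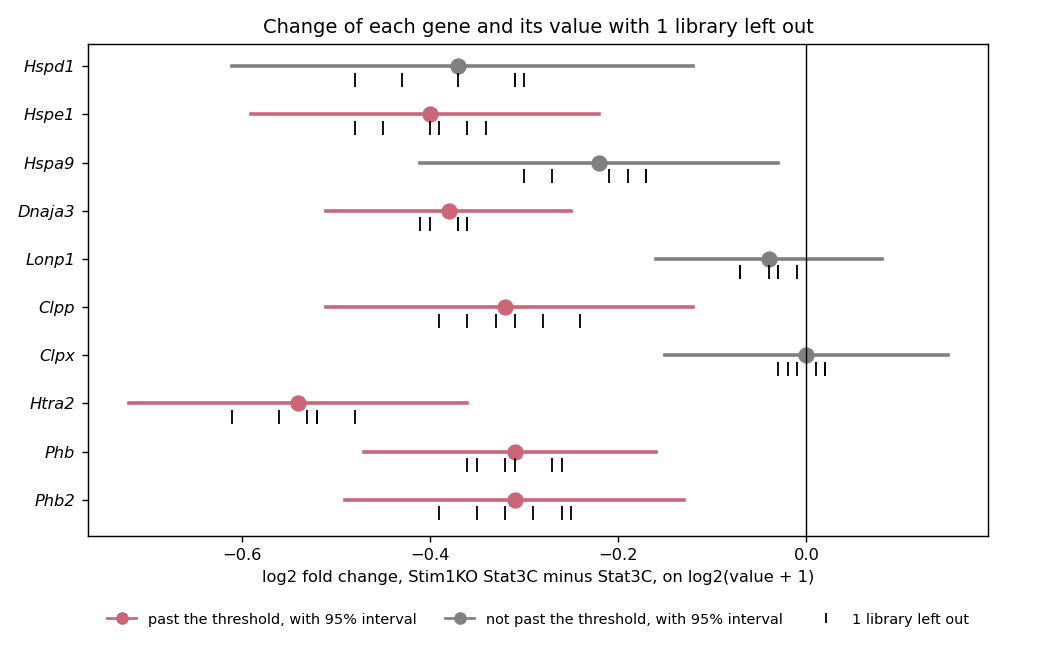
Log2 fold change of each gene, Stim1KO Stat3C minus Stat3C (horizontal axis), with its 95% interval as a line, red for genes past the threshold and grey for the others, and small ticks for the value with 1 library left out. Htra2 lies lowest at -0.54, Clpx and Lonp1 lie at 0.00 and -0.04, and no tick of the 6 red genes reaches 0.

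The libraries within a group differed in a shared way. Stat3C replicate 2 had the lowest Stat3C value for 8 of the 10 genes and the highest for the other two, Lonp1 and Htra2. Stat3C replicate 3 was highest for 7, and Stim1KO Stat3C replicate 3 was highest in its group for 7, all but Dnaja3, Lonp1 and Clpx. Together the 10 genes took 0.456%, 0.399% and 0.467% of the reads of Stat3C replicates 1, 2 and 3, and 0.340%, 0.357% and 0.377% of those of Stim1KO Stat3C replicates 1, 2 and 3. Hspd1 and Hspa9 make up most of these reads. Stat3C replicate 2 also had the highest summed red cell (477) and myeloid (305) markers of its group, whose part in its low values was not tested. The fewest reads behind any value were 785, for Clpx, where counting alone gives an error of 3.57%.

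Genes whose proteins work as partners were then set against each other within each library. The ratio of normalised counts of Hspd1 to Hspe1, not scaled to length, was 5.08, 4.52 and 4.78 for Stat3C, against 4.55, 5.23 and 5.01 for Stim1KO Stat3C, overlapping values (log2 difference 0.04, exact permutation test, two-sided, p = 0.70). The ratio of Phb to Phb2 was 0.663, 0.711 and 0.668 in Stat3C against 0.678, 0.681 and 0.681 in Stim1KO Stat3C, so the prohibitins kept nearly the same proportion in all 6 libraries (log2 difference 0.00, exact permutation p = 1). The ratio of Clpx to Clpp was 0.518, 0.532 and 0.484 in Stat3C against 0.658, 0.699 and 0.560 in Stim1KO Stat3C, without overlap. The unfoldase was thus higher relative to the peptidase by a log2 difference of 0.32 (exact permutation p = 0.10). Hspa9 relative to Dnaja3 was 14.7, 13.3 and 14.9 in Stat3C against 15.0, 15.4 and 17.5 in Stim1KO Stat3C, also without overlap (log2 difference 0.16, exact permutation p = 0.10). With 3 libraries against 3 a p of 0.10 is the smallest the test can give, and adjusted over the 4 pairs the values were 0.933, 1, 0.2 and 0.2.

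**Figure D3:**
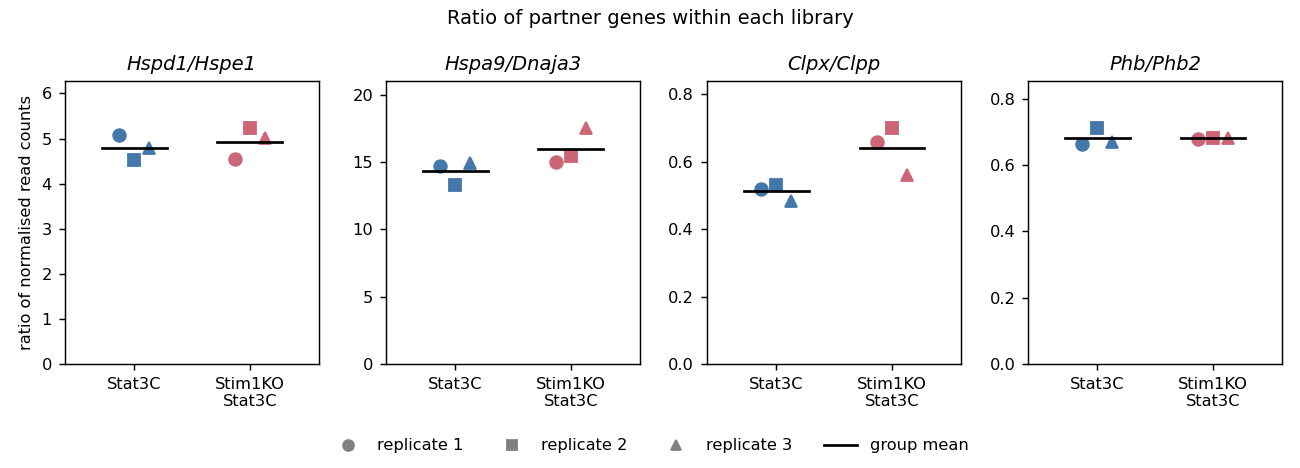
Ratio of the normalised read counts of 2 partner genes (vertical axis, from 0) in each library, Stat3C in blue and Stim1KO Stat3C in red, with lines for the group means. Clpx/Clpp moves from a mean of 0.511 to 0.639 without overlap, while Phb/Phb2 stays at 0.681 and 0.680.

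Levels of different genes can be compared only per length. Per kilobase of exon (union of all annotated exons) Hspd1 was highest at 13011 normalised counts in Stat3C against 10064 in Stim1KO Stat3C, ahead of Hspa9 (5770 and 4954) and Hspe1 (4853 and 3660). Hspa9 and Hspe1 were neighbours whose ranges over all 6 libraries overlapped, 4621 to 6163 and 3444 to 5266. Phb2 (3077 and 2474) and Phb (2771 and 2231) came next with overlapping ranges, followed by Clpp (1651 and 1327) and Lonp1 (1302 and 1265), whose ranges also overlapped. Htra2 (551 and 378), Dnaja3 (445 and 342) and Clpx (295 and 295) were lowest, with overlap between Htra2 (371 to 595) and Dnaja3 (335 to 456) and none between Dnaja3 and Clpx (285 to 308).

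Several of these genes overlap others on the genome, and the sources do not state whether counting used the strand, so reads in shared exons are uncertain. The neighbours were picked after the annotation had been read, by distance alone. Htra2 shares 25.6% of its exon bases with Aup1 and 18.2% with Loxl3, both on the opposite strand. Aup1, which encodes a lipid droplet protein, stood at 3383, 3438 and 3736 in Stat3C against 3389, 3402 and 3399 in Stim1KO Stat3C (log2 -0.05, adjusted p = 0.57), and Loxl3 was at 0 to 6.85 in all 6 libraries. Dnaja3 shares 3.91% of its exon bases with Coro7 on the opposite strand, which rose (log2 0.56, adjusted p = 0.00789), and 4.09% with Vasn on the same strand, at 4.76 to 14.5. The span of Dnaja3 used for these shares and for its length starts at 4639989. The RefSeq start site used for its promoter lies inside that span, at 4684070. Hspd1 and Hspe1 share 112 exon bases on opposite strands. Emg1, a ribosome biogenesis gene that starts 157 bases from Phb2 on the other strand, stood at 5610, 5116 and 5827 in Stat3C against 4191, 4514 and 5093 in Stim1KO Stat3C, without overlap (log2 -0.27, adjusted p = 0.0691). Rpl36, which ends 53 bases from the end of Lonp1, fell (log2 -0.31, adjusted p = 0.0159) while Lonp1 did not pass. GENCODE names 5 pseudogenes of Hspd1, 6 of Hspe1 and 1 of Hspa9, none of which is a row of the table under that name, so reads that match both a gene and its copies may have been lost or credited to the gene.

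Related genes were taken from 6 lists of 60 genes, all found, 2 of them by an older symbol. Among 11 other mitochondrial chaperones and cochaperones, 3 fell and 8 missed the threshold (median log2 fold change -0.16), where 4.96% of all tested genes fell. Trap1, the HSP90 of the mitochondrion, fell from 4328 ± 72.5 to 3590 ± 235 (log2 -0.27, adjusted p = 0.0226). Bcs1l, which inserts the iron-sulphur protein into respiratory complex III, fell from 313 ± 30.2 to 234 ± 13.9 (-0.42, adjusted p = 0.049), a call held in 8 of 21 alternatives and lost with edgeR, voom, a pseudocount of 5, no filter and the Xist covariate. Dnajc11, a J-domain protein tied to cristae, fell from 3260 ± 142 to 2793 ± 76.3 (-0.22, adjusted p = 0.0343). All 11 had a negative log2 fold change, as had 50.2% of all tested genes.

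Among 16 other mitochondrial proteases, 1 fell and 15 missed the threshold (median -0.12). This count lies near the share of all tested genes that fell, 4.96%. The one that fell was Pitrm1, which degrades the targeting peptides cut from imported proteins (4450 ± 306 to 3634 ± 242, log2 -0.29, adjusted p = 0.034). Afg3l2, the subunit of the inner membrane protease that prohibitins surround, stood at 3530 ± 53.9 and 3388 ± 138 (log2 -0.06, 95% interval -0.18 to 0.06). Its groups lay just without overlap (3481 to 3588 in Stat3C, 3229 to 3471 in Stim1KO Stat3C), as for 16.4% of all tested genes in that direction. Yme1l1, the protease facing the space between the membranes, stood at 3432 ± 150 and 3533 ± 255 (0.04, 95% interval -0.11 to 0.19). Immp2l, an inner membrane peptidase, had the lowest value of this list (-0.95, adjusted p = 0.265) at only 5.48 to 24.7 normalised counts. Afg3l2, Yme1l1 and Immp2l lie outside the rule for named genes and were picked with their values in view.

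Of 7 relatives of the prohibitins, which share the SPFH domain, 1 rose and 6 did not pass (median 0.02), where 8.62% of all tested genes rose. Stoml1, a stomatin-like protein, rose from 562 ± 46.5 to 821 ± 54.2 (log2 0.55, adjusted p = 0.00797). Stoml2, the mitochondrial relative that binds prohibitins, stood at 3570, 3295 and 3807 in the first group and 2924, 3005 and 3429 in the second, which overlapped (-0.19, adjusted p = 0.148). Of 8 regulators ascribed to the mitochondrial stress response 1 rose and 7 did not pass (median -0.03), again beside 8.62% of all tested genes. Ddit3, which encodes the stress factor CHOP, stood at 128, 192 and 166 in Stat3C against 408, 314 and 288 in Stim1KO Stat3C and rose (log2 1.06, SE 0.19, adjusted p = 0.0113). Atf4, the central factor of the integrated stress response, stood at 9798 ± 966 and 9498 ± 314 (log2 -0.04). Atf5, which is held to drive mitochondrial chaperone genes, stood at 244 ± 34.6 and 318 ± 82.0 (0.36, adjusted p = 0.236). Hsf1, the heat shock factor, stood at 1444 ± 45.5 and 1298 ± 59.8 (-0.15, adjusted p = 0.14). The groups overlapped for Atf4 and Atf5. For Hsf1 they did not (1399 to 1490 in Stat3C, 1233 to 1351 in Stim1KO Stat3C), as for 16.4% of all tested genes in that direction. Stoml2 and these 3 factors were likewise picked with their values in view. Ddit3 and Stoml1 held their calls with each library left out (adjusted p at most 0.0479 and 0.0377).

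Outside the mitochondrion, 4 of 17 tested genes of cytosolic chaperones fell, against 4.96% of all tested genes. Of 9 tested genes of the cytosolic HSP70, HSP90 and HSP40 families 2 fell and 7 missed the threshold (median -0.17), and Hspa1a was too low to be tested. Hsp90ab1, the constitutive HSP90, fell from 138873 ± 9046 to 115311 ± 5671 (log2 -0.27, adjusted p = 0.0379) and Hsp90aa1 from 50668 ± 1861 to 42876 ± 3043 (-0.24, adjusted p = 0.044). Of 8 subunits of TRiC, the cytosolic counterpart of the HSP60 chaperonin, 2 fell and 6 did not pass. Tcp1 fell from 18278 ± 1036 to 15311 ± 932 (-0.26, adjusted p = 0.037) and Cct7 from 16428 ± 1048 to 13593 ± 964 (-0.27, adjusted p = 0.0374). All 8 subunits lay between -0.27 and -0.18. With limma all 8 had an unadjusted p below 0.05, against 14.0% of all tested genes lower. DESeq2 called 7 of them lower, against 8.40% of all tested genes. For the 8 genes of these lists that fell, leaving out Stat3C replicate 1 or 3, or replicate 1 or 2 of Stim1KO Stat3C, ended each call, and leaving out Stim1KO Stat3C replicate 3 ended all but those of Trap1 and Cct7 (adjusted p 0.0532 to 0.181 where lost). In the 4 lists of other chaperones and proteases 0 genes rose with limma, which called 8.62% of all tested genes higher. At an unadjusted p below 0.05 the number was also 0, as it was with edgeR, DESeq2 or voom. Among the prohibitin relatives limma called 0 lower (2 at an unadjusted p below 0.05), edgeR and voom 0 and DESeq2 1, and among the stress regulators limma called 0 lower (1 at an unadjusted p below 0.05) and edgeR, DESeq2 and voom 0.

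**Figure D4:**
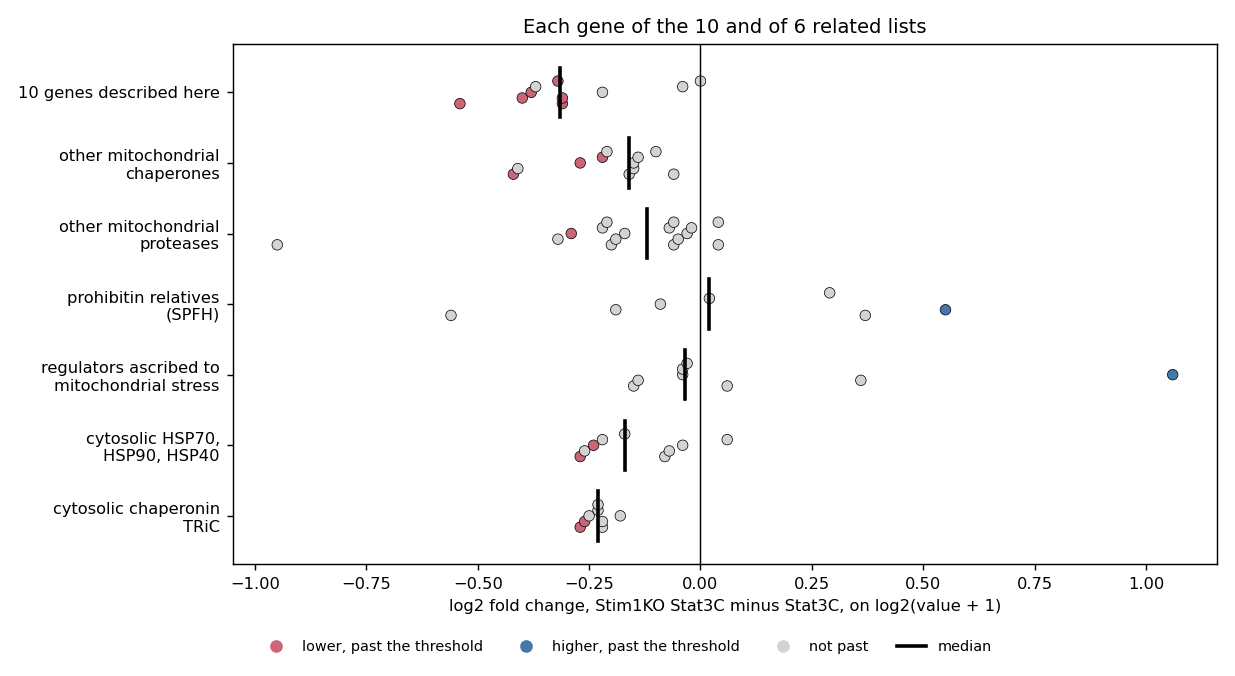
Log2 fold change of each gene, Stim1KO Stat3C minus Stat3C (horizontal axis), for the 10 genes and the 6 related lists (rows), with red for genes that fell, blue for genes that rose, grey for the others and a black line at each median. The medians are -0.32 for the 10 genes, -0.16 and -0.12 for other mitochondrial chaperones and proteases, and -0.17 and -0.23 for the cytosolic lists.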

How the data were processed

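Gene by library, the authors deposited a normalised signal: read counts divided by 1 size factor per library, judging from the file, where 100% of non-zero entries in each column lay within 0.01 of a whole number of steps (0.433 to 1.37). Per the submitters' processing notes TopHat2 2.1.1, HTSeq 0.11.1, DESeq2 1.22.2 and mm10 were used; the library kit marks strand, per the labels' protocols, but no source used here names the gene models or the strand setting of the counting. In 27 of 23420 rows the gene name had become a date, and these rows (at most 0.217% of reads) were left out. For Stim1KO Stat3C replicate 3 the step of 0.995 is hard to tell from rounding, so edgeR was also run without it.

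Genes with a mean of at least 10 were tested with limma 3.58.1 (variance trend, log2(value + 1), two-sided, 6 libraries, Benjamini-Hochberg adjustment over 11947 genes). Count models (edgeR 4.0.16, DESeq2 1.42.0, voom) ran on recovered reads as alternatives, 21 in all, with R 4.3.3. Xist as a covariate and replicates 1 and 2 alone were added after the data were seen. Members, lists and pairs were chosen with earlier results of these data known. Named are the 10 genes, Stim1, and per list up to 4 genes past the threshold by adjusted p (or 2 by level where none passed). Overlapping genes were listed within 500 bases. Positions are from GENCODE mouse release M21 (GRCm38). The fit was also run on simulated counts, and its results are not reported here. The simulation held no outlying library, no sex difference and no changes as small as most of those called among the 10 genes. A count of 0 allows up to 3 reads, 1.30 to 4.11 normalised counts, for counting error only. The summed Th17 markers are not reported here.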

Additional observations from a re-analysis of the deposited data

How the results depend on the processing

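No paired analysis was possible because the labels give the libraries no shared replicate numbers. The measured Xist level, fitted as a covariate, gave 7 of the 10 genes lower, with Hspd1 added, and 633 lower over all genes. The 6 genes that fell kept a negative log2 fold change under all 21 alternatives. Htra2 and Dnaja3 passed the threshold in 20 each, Hspe1 and Phb in 15, Clpp in 13 and Phb2 in 11. Hspd1 passed in 6 and Hspa9 in 3. With reads thinned to equal depth, 7 of the 10 genes fell, and 602 over all genes. The number of the 10 genes that fell was 2 with limma without a variance trend, 2 to 8 with 1 library left out and 0 within replicates 1 and 2 alone (7 at an unadjusted p below 0.05). The cause of these shifts was not tested, and the fits that left libraries out also held fewer samples. Over all genes, 593 fell and 1030 rose. Those that fell numbered 224 without a trend, 1804 with library quality weights, 1004 with DESeq2, 283 with edgeR without Stim1KO Stat3C replicate 3, 140 to 1192 with 1 library left out and 16 within replicates 1 and 2. Those that rose numbered 603, 2155, 1246 (DESeq2), 639 (edgeR without that replicate), 477 to 1707 and 66 under the same settings. Near 0, Lonp1 changed sign with quality weights (0.01) and within replicates 1 and 2 (0.00). Clpx changed sign with edgeR without Stim1KO Stat3C replicate 3 (0.01), thinned to equal depth (0.03), within replicates 1 and 2 (0.02) and without Stat3C replicate 1 (0.02) or Stim1KO Stat3C replicate 2 (0.01) or 3 (0.02), its range with 1 library left out being -0.03 to 0.02. Per kilobase of the longest transcript the Stat3C levels were 8157 for Hspa9, 7420 for Hspe1, 4821 for Phb2, 4320 for Phb, 2054 for Clpp, 658 for Dnaja3, 646 for Htra2 and 357 for Clpx, so that Dnaja3 and Htra2 changed places.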
